A study of Mus musculus with 6 samples.

Results

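Glutamate receptors were described through 34 genes, which code for the receptor subunits of the AMPA, NMDA, kainate and delta families, for metabotropic receptors and for auxiliary subunits. The genes were chosen by name and family, with no threshold on a measured value, and they were found once each among the 38355 genes listed in the count data. Counts of 32 of them were high enough to be tested for a difference between ages, together with 17120 genes in all. The remaining 2, Grin3b and Grm6, were too low in every sample.

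Glutamate is the main excitatory transmitter of the cortex. AMPA receptors carry most of the fast excitatory current, NMDA receptors admit calcium and set the rules of synaptic plasticity, kainate receptors modulate transmission on either side of the synapse, and metabotropic receptors act through G proteins. The pore-forming subunits are transported to the synapse and tuned there by auxiliary proteins, among them the transmembrane AMPA receptor regulatory proteins (the Cacng genes), the cornichons (Cnih genes) and the Neto proteins that bind kainate receptors.

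Whole cortical hemispheres of C57BL/6 mice, a wild-type inbred strain, were compared at 6 months (3 samples) and at 16 months (3 samples). The samples of an age were separate brains. No transgene or treatment distinguished the groups, and the sex of the animals is not given in the labels. In the housing protocol the younger age appears as 3 months, whereas the sample titles give 6 months, the age used here. Polyadenylated RNA of bulk tissue was sequenced, so that fewer cells of a type and less RNA per cell cannot be told apart.

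Total counts on genes ranged from 29797253 to 46519280 per sample. Markers of cortical excitatory neurons were present in every sample, with a summed level of 1437 to 1528 CPM, which stands for counts per 1000000, at 6 months and 1454 to 1740 CPM at 16 months, and none of the 8 passed the test. Some markers of neighbouring regions did differ. Of 9 thalamic markers 6 were higher at 16 months (edgeR's quasi-likelihood test, adjusted p under 0.05), and the sum of the list was 104 to 108 CPM at 6 months and 134 to 145 CPM at 16 months. For hippocampus and dentate gyrus, 3 of 8 markers were higher, with sums of 149.9 to 156 CPM and 179 to 209 CPM. Among 5 choroid plexus markers Ttr was higher, with sums of 16.5 to 17.97 CPM and 25.0 to 27.9 CPM. In the remaining lists, Gpr17 of 3 oligodendrocyte precursor markers was higher, Gfap of 6 astrocyte and Aif1 of 5 microglia markers were lower, and no marker of GABAergic neurons, oligodendrocytes, endothelial cells, striatum or cerebellum passed the test. The sums of several of these lists also lay apart and higher at 16 months. They were 841 to 859 and 894 to 947 CPM for GABAergic neurons, 453 to 461 and 471 to 498 CPM for striatum, 108 to 113 and 140 to 150.4 CPM for oligodendrocyte precursors, 243 to 253 and 259 to 263 CPM for microglia, and 9.37 to 9.87 and 10.4 to 12.0 CPM for the cerebellar markers. Sums of astrocyte, oligodendrocyte and endothelial markers overlapped between the ages. Gabra6 of the cerebellar list was at or under 3 counts in every sample. The part of these other markers in the differences of the glutamate receptor genes was not tested.

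The level of each gene was first compared between genes as CPM per kilobase of annotated exon, averaged over all 6 samples. Cnih2, a cornichon that slows the closing of AMPA receptors, stood at the top with 108 CPM per kilobase. It was followed by the AMPA receptor subunits Gria1 (72.7 CPM per kilobase) and Gria2 (70.1 CPM per kilobase) and by the auxiliary subunit Cacng7 (64.2 CPM per kilobase). At 6 months Gria1 and Gria2 were at 69.2 ± 2.23 and 71.2 ± 3.45 CPM per kilobase (SD, n = 3), within their spread between samples. Gria3 came next with 42.7 CPM per kilobase, and then 4 genes of different families lay close together between 33.1 and 33.6 CPM per kilobase, namely the metabotropic receptor Grm3, the kainate receptor subunit Grik5, the auxiliary subunit Cacng3 and the obligatory NMDA receptor subunit Grin1. At 16 months the SD of Grik5 and of Grin1 was 6.73 and 4.39 CPM per kilobase, larger than all gaps among these 4. The order of genes also depends on the annotated exon length, and the SD between samples does not measure that dependence. Exon length and longest transcript are 6043 and 5546 bases for Gria1, 15548 and 10371 for Gria2, and 9859 and 5206 for Gria3. For Grin1 they are 9700 and 4276 bases, and for Cacng3 both are 2777 bases. Ties between genes per kilobase are therefore ties under this annotation only.

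At the low end, Grin2a (1.97 CPM per kilobase), Grik1 (1.95) and Grm8 (1.87) had the lowest levels among the tested genes and lay within their spread of each other. The low values of Grin2a and of Grin2b (4.27 CPM per kilobase) come with the longest annotated exon sequence of the family, 17933 and 24842 bases, and a level per length depends on that annotation. Grin3b, the NMDA receptor subunit best known from motor neurons, had 8, 7 and 7 counts at 6 months and 10, 7 and 9 counts at 16 months. Tmem259 overlaps 32.1% of the exon bases of Grin3b, so that reads of that stretch are uncertain. Grm6, the metabotropic receptor of retinal bipolar cells, had 1, 1 and 0 counts at 6 months and 2, 0 and 0 counts at 16 months, so that it stayed at or under 3 counts in all samples. Gm12660 overlaps 11.05% of the exon bases of Grm6.

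**Figure D1:**
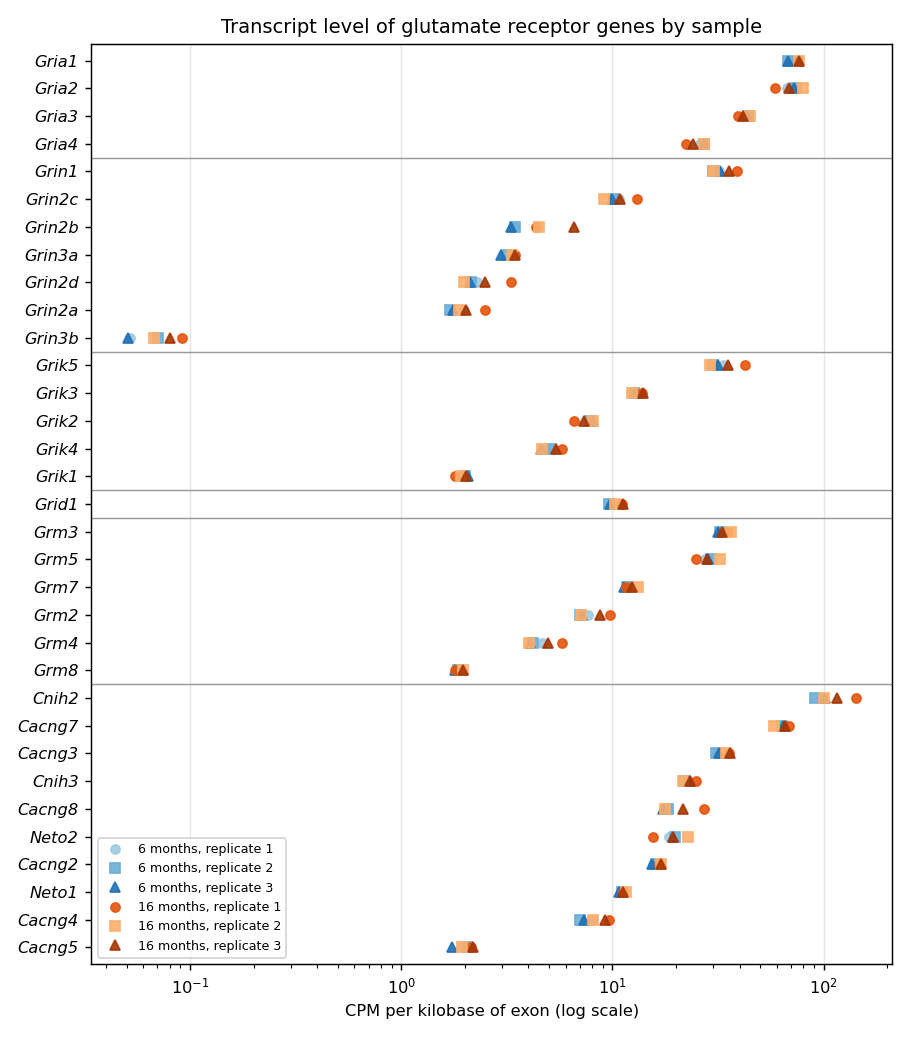
Level of each gene in each sample as CPM per kilobase of exon (log axis), ordered by family and then by level, with blue symbols for 6 months, orange to brown symbols for 16 months and a shape for each replicate number. Grm6 is left out because it had at most 2 counts in a sample. Cnih2, Gria1, Gria2 and Cacng7 lie highest, and for most genes the samples of the ages lie close together.

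None of the 32 tested genes passed the adjusted threshold of 0.05 (edgeR's quasi-likelihood test, p-values adjusted over all 17120 genes by the method of Benjamini and Hochberg), where 1.67% of all tested genes did. At an unadjusted p under 0.05 there were 7 genes, all with higher values at 16 months, which is 21.9% of the 32 against 8.57% of all genes tested in that direction. By DESeq2, which called 2.67% of all genes, 1 of the 32 passed, Grin2b. Samples of the ages did not overlap for 7 genes, again all higher at 16 months, against 12.2% of all genes tested. Of the 32 log2 fold changes 25 were positive (78.1%, against 50.3% of all genes), and their median was 0.11 (against 0.0014 over all genes). The values were small, and they ran from -0.13 for Gria4 to 0.60 for Grin2b.

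The AMPA receptor subunits form the pore of the fast receptor. Gria1, the subunit that is delivered to synapses during plasticity, had 434, 410 and 411 CPM in the 3 samples of 6 months and 457, 463 and 461 CPM in those of 16 months. All samples of 16 months lay above all samples of 6 months. The means were 418 ± 13.5 and 460 ± 3.16 CPM (SD, n = 3), with a log2 fold change of 0.14 ± 0.0484 (SE) and an adjusted p of 0.185 (edgeR's quasi-likelihood test), short of the threshold. Gria2, whose edited form keeps calcium out of the channel, was between 1046 and 1145 CPM at 6 months and between 913 and 1237 CPM at 16 months, with a log2 fold change of -0.05. For Gria3 the range was 428 to 431 CPM and then 387 to 441 CPM, and for Gria4, which is abundant in interneurons, it was 164 to 172 CPM and then 140 to 171 CPM. Thus Gria2, Gria3 and Gria4 overlapped between the ages, and the median of the 4 genes was -0.05 (0.012 with the offsets for GC content and length described further on).

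Composition was also expressed as the share of each subunit in the sum of the 4 AMPA receptor transcripts per kilobase, without a test. Gria4 took 12.5%, 12.8% and 12.8% at 6 months and 11.3%, 11.9% and 11.5% at 16 months, and Gria3 took 20.7% ± 0.118 and 19.8% ± 0.231 (SD, n = 3). For both the samples of the ages lay apart, with the lower share at 16 months. Gria1 took 32.8% ± 1.39 and 36.2% ± 2.51, and Gria2 took 33.8% ± 1.31 and 32.5% ± 2.45, with overlapping samples. The 4 shares of a sample sum to the whole and are therefore not independent of each other.

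Among the NMDA receptor subunits, Grin2b had the largest difference of all 32 genes. It codes for GluN2B, the subunit of slow, strongly calcium-signalling receptors that dominates early in development, and lies on the minus strand at chr6:135713233-136173511 (GRCm38). It was at 84.5, 86.1 and 82.0 CPM in the samples of 6 months and at 108, 111 and 164 CPM in those of 16 months, from 2584 to 5605 counts per sample. All samples of 16 months lay above those of 6 months, and replicate 3 of 16 months lay far above the others of its age. The means were 84.2 ± 2.10 and 128 ± 31.3 CPM (SD, n = 3), with a log2 fold change of 0.60 ± 0.135 (SE) and an adjusted p of 0.0609 (edgeR's quasi-likelihood test). Without replicate 3 of 16 months the log2 fold change was 0.38 (adjusted p = 0.0608, edgeR's quasi-likelihood test), and over all samples left out in turn it ranged from 0.38 to 0.71. DESeq2 with default settings gave 0.60 with an adjusted p of 0.00034. The thalamic marker sum was 138 CPM in replicate 3 of 16 months, between the values of the other samples of that age (134 and 145 CPM), and the hippocampal sum of 191 CPM also lay between those of the others. The part of other regions or cell types in the Grin2b value of replicate 3 was not tested.

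Grin2a, which codes for the faster GluN2A subunit of mature synapses, had 35.5, 30.4 and 31.4 CPM at 6 months and 44.8, 33.5 and 36.2 CPM at 16 months. Replicate 1 of 16 months was the highest, and the ages overlapped, with a log2 fold change of 0.23 ± 0.105 (SE, adjusted p = 0.287, edgeR's quasi-likelihood test). Without replicate 1 of 16 months it was 0.10. Within the longest Grin2a transcript 15.2% of the bases have a near-identical copy in Gm7328, so that reads of that stretch are uncertain.

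The share of Grin2a in the sum of Grin2a and Grin2b per kilobase describes the balance of the 2 main GluN2 transcripts. It was 36.8%, 32.8% and 34.7% at 6 months and 36.4%, 29.4% and 23.4% at 16 months. The ages overlapped, and replicate 3 of 16 months was lowest. The difference in means was -5.02 percentage points (34.8% ± 1.97 and 29.7% ± 6.49, SD, n = 3, exact two-sided permutation test, p = 0.3, where 0.1 is the smallest p the design allows).

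Grin1, the subunit present in every NMDA receptor, had 311, 291 and 313 CPM at 6 months and 377, 293 and 344 CPM at 16 months. Replicates 1 and 3 of 16 months lay above all samples of 6 months, whereas replicate 2 did not, and the log2 fold change was 0.15 ± 0.0840 (SE, adjusted p = 0.401, edgeR's quasi-likelihood test). It was 0.06 without replicate 1 and 0.24 without replicate 2 of 16 months, and 0.08 with the offsets. The antisense gene Grin1os overlaps 13.5% of the exon bases of Grin1, and since the strand setting of the counting is not stated, reads of that stretch are uncertain. The other tested members were Grin2c (50.1 to 54.3 CPM at 6 months and 45.9 to 65.9 CPM at 16 months), Grin2d, a subunit of interneurons (14.1 to 15.2 CPM and 13.2 to 21.9 CPM), and Grin3a, which lowers calcium entry (36.5 to 41.0 CPM and 40.9 to 42.4 CPM). Each of these overlapped between the ages. Within Grin2d, 9.66% of the exon bases are shared with Gm45441. All 6 tested NMDA receptor subunits had positive log2 fold changes, with a median of 0.19, but without replicate 1 of 16 months Grin2c was at -0.04 and the median at 0.08.

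**Figure D2:**
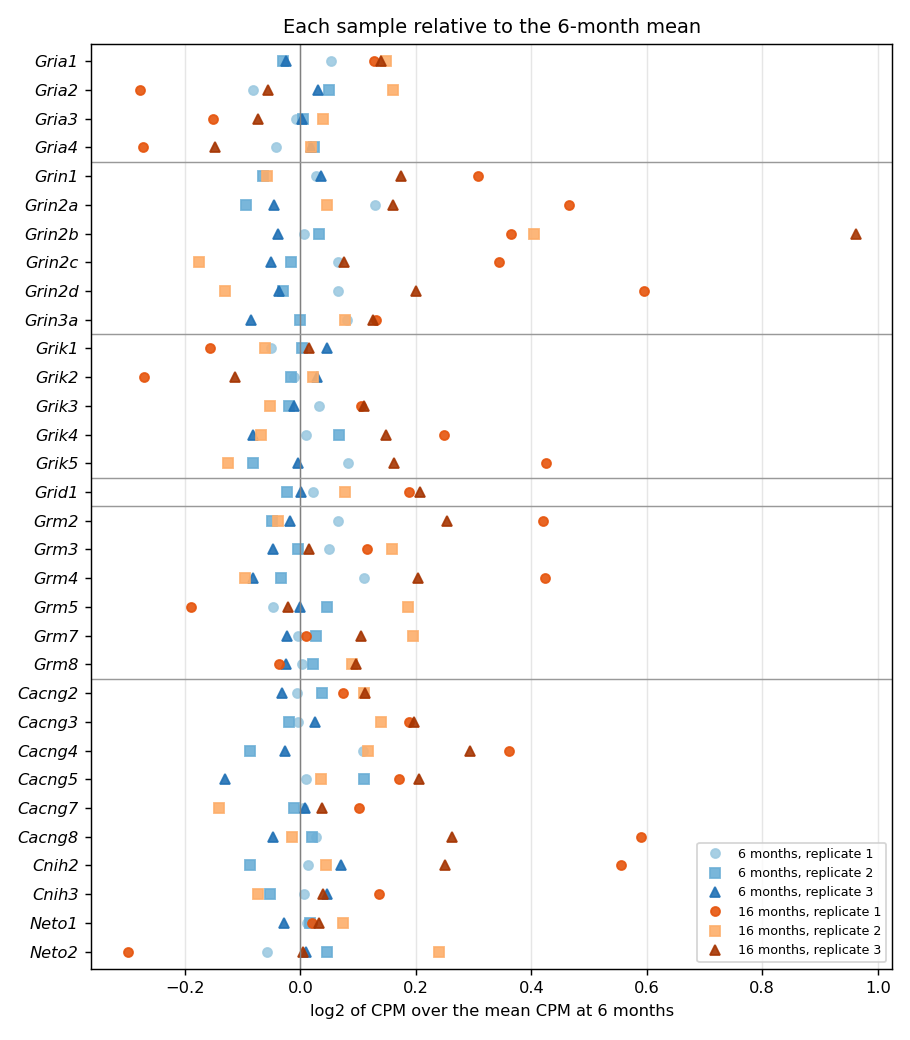
Level of the 32 tested genes in each sample as the log2 of its CPM over the mean CPM at 6 months, with blue symbols for 6 months, orange to brown symbols for 16 months and a shape for each replicate number. Grin2b has replicate 3 of 16 months far to the right (164 CPM), whereas in Cacng8, Cnih2 and Grin1 replicate 1 is highest and replicate 2 lowest at 16 months.

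All 5 kainate receptor subunits overlapped between the ages, where 23.7% of all genes tested did not overlap in either direction. Grik5, which codes for a high-affinity subunit and had the highest level per length of this family, was at 173, 154 and 163 CPM at 6 months and at 219, 150 and 182 CPM at 16 months. The samples of 16 months thus included both the highest and the lowest value, with a log2 fold change of 0.17 ± 0.115 (SE, adjusted p = 0.487, edgeR's quasi-likelihood test). Grik1, a pore-forming subunit, lay between 12.0 and 13.9 CPM over all samples, Grik2, the main low-affinity subunit, between 87.2 and 107 CPM, Grik3 between 111 and 125 CPM, and Grik4, the other high-affinity subunit, between 27.4 and 34.4 CPM. Without replicate 1 of 16 months the value of Grik5 was 0.02, without replicate 2 it was 0.30, and with the offsets it was 0.10. The family median was 0.06, with 3 of 5 values positive, and it was 0.0136 with the offsets, 0.02 without replicate 1, 0.11 without replicate 2 and 0.03 without replicate 3 of 16 months.

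Grid1 codes for the delta receptor GluD1, which links the synapse to cerebellin and neurexin and opens little if at all to glutamate. It had 58.9, 57.1 and 58.0 CPM at 6 months and 66.1, 61.3 and 67.0 CPM at 16 months. Each sample of 16 months lay above each sample of 6 months. Means were 58.0 ± 0.919 and 64.8 ± 3.10 CPM (SD, n = 3), with a log2 fold change of 0.16 ± 0.0547 (SE, adjusted p = 0.181, edgeR's quasi-likelihood test).

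Metabotropic receptors had positive log2 fold changes in 5 of 6 tested genes, with a median of 0.10 (0.06 without replicate 2 of 16 months). All 6 overlapped between the ages, where 23.7% of all genes tested did not overlap in either direction. Grm3, a receptor of astrocytes and neurons that lowers cAMP, was highest per length, at 103, 98.8 and 96.0 CPM at 6 months and 107, 111 and 100 CPM at 16 months. Its lowest sample of 16 months lay inside the range of 6 months, and the log2 fold change was 0.10 ± 0.0568 (SE, adjusted p = 0.418, edgeR's quasi-likelihood test). Grm2, the presynaptic receptor of the same group, was between 34.4 and 37.3 CPM at 6 months and between 34.7 and 47.7 CPM at 16 months. Gm28111 overlaps 9.60% of its exon bases. Grm5, the receptor coupled to phospholipase C and bound by Homer proteins, was between 281 and 299.8 CPM and then between 254 and 330 CPM, with a log2 fold change of -0.0007. The presynaptic receptors Grm4, Grm7 and Grm8 were between 24.0 and 34.4 CPM, 67.0 and 77.9 CPM, and 17.7 and 19.4 CPM over all samples.

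Auxiliary subunits contributed 4 of the 7 genes with an unadjusted p under 0.05, which is 40.0% of the 10 (8.57% of all genes, both higher at 16 months). They also contributed 4 of the 7 whose samples did not overlap (40.0%, against 12.2% of all genes, again higher). Of their log2 fold changes 9 of 10 were positive, with a median of 0.12. The regulatory proteins encoded by Cacng2, Cacng3, Cacng4 and Cacng8 take AMPA receptors to the membrane and slow their closing. Cacng3, the subunit gamma-3, had 86.7, 85.8 and 88.4 CPM at 6 months and 99.1, 95.8 and 99.6 CPM at 16 months. Its samples lay tightly together within each age and apart between them, at means of 87.0 ± 1.36 and 98.2 ± 2.08 CPM (SD, n = 3). The log2 fold change was 0.17 ± 0.0489 (SE, adjusted p = 0.109, edgeR's quasi-likelihood test).

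Cacng4 was at 28.8, 25.2 and 26.2 CPM at 6 months and at 34.4, 29.0 and 32.8 CPM at 16 months. Here too the ages did not overlap, although the lowest sample of 16 months was only slightly above the highest of 6 months, and the log2 fold change was 0.26 ± 0.0785 (SE, adjusted p = 0.136, edgeR's quasi-likelihood test). Cacng2, which codes for stargazin, was between 84.6 and 88.8 CPM at 6 months and between 91.1 and 93.5 CPM at 16 months, without overlap, with a log2 fold change of 0.10.

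Cacng8 and Cnih2 had a different pattern. Cacng8, the subunit gamma-8 that is abundant in hippocampus and forebrain, had 43.0, 42.8 and 40.9 CPM at 6 months and 63.6, 41.8 and 50.7 CPM at 16 months. Cnih2 had 134, 125 and 139 CPM at 6 months and 195, 137 and 158 CPM at 16 months. In both genes replicate 1 of 16 months was highest and replicate 2 fell inside the range of 6 months, so that the ages overlapped. The log2 fold change of Cacng8 was 0.30 ± 0.123 (SE, adjusted p = 0.243) and that of Cnih2 was 0.30 ± 0.110 (SE, adjusted p = 0.202, both edgeR's quasi-likelihood test). Without replicate 1 of 16 months Cacng8 was at 0.13 and Cnih2 at 0.15, and over all samples left out in turn they ranged up to 0.44 and 0.41. The same order of replicates at 16 months was found in the marker sums of hippocampus and dentate gyrus (209, 179 and 191 CPM), cortical excitatory neurons (1740, 1454 and 1587 CPM), striatum (498, 471 and 481 CPM) and oligodendrocytes (5535, 5413 and 5449 CPM). Endothelial cells had it too (99.0, 92.9 and 93.2 CPM). The reverse order was found in the sums of thalamus (134, 145 and 138 CPM), GABAergic neurons (894, 947 and 916 CPM) and astrocytes (1512, 1627 and 1612 CPM). The remaining lists had neither order. The part of the marker lists in the values of Cacng8 and Cnih2 was not tested.

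Of the other auxiliary subunits, Neto1, which binds kainate and NMDA receptors, was between 90.1 and 92.9 CPM at 6 months and between 93.2 and 96.7 CPM at 16 months. These samples did not overlap although the log2 fold change was 0.04. Neto2 was between 95.7 and 139 CPM over all samples, the gamma-7 gene Cacng7 between 142 and 168 CPM, the gamma-5 gene Cacng5 between 6.65 and 8.40 CPM, and Cnih3 between 59.1 and 68.3 CPM. These 4 overlapped between the ages.

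The samples of 16 months were more spread out than those of 6 months. The median SD of log2 CPM over the 32 genes was 0.05 at 6 months and 0.14 at 16 months, and the SD was larger at 16 months in 28 of them, while over all tested genes the medians were 0.06 and 0.13 with a larger SD at 16 months in 75.5%. Within 16 months, the deviation of a gene in a sample from the mean of the age followed the GC content of its longest transcript. Across the 32 genes, which share the libraries and are not independent replicates, Pearson's r of this deviation with GC content was 0.88 in replicate 1, -0.88 in replicate 2 and -0.07 in replicate 3. Over 16904 genes with a GC value these were 0.59, -0.58 and -0.05. At 6 months the values for the 32 genes were 0.54, -0.44 and -0.14. The deviations of a gene within an age cancel out, so the r values of the replicates are not independent of each other.

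Named genes show the size of this difference. All 9 genes with a GC content of at least 55%, which were Grin1, Grin2c, Grin2d, Grik5, Grm2, Grm4, Cacng7, Cacng8 and Cnih2, were higher in replicate 1 than in replicate 2 of 16 months, with a median of 0.52 on the log2 scale. Among 9 genes under 45%, which were Gria2, Gria3, Gria4, Grin2a, Grik2, Grm5, Grm8, Neto1 and Neto2, 8 were lower in replicate 1 and the median was -0.29. Grin2a was the exception. The log2 fold changes between ages were positive in all 9 genes of high GC content (median 0.19) and in 3 of 9 genes of low GC content (median -0.0009). Grin2b, with a GC content of 45.7%, departed from the pattern through replicate 3.

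**Figure D3:**
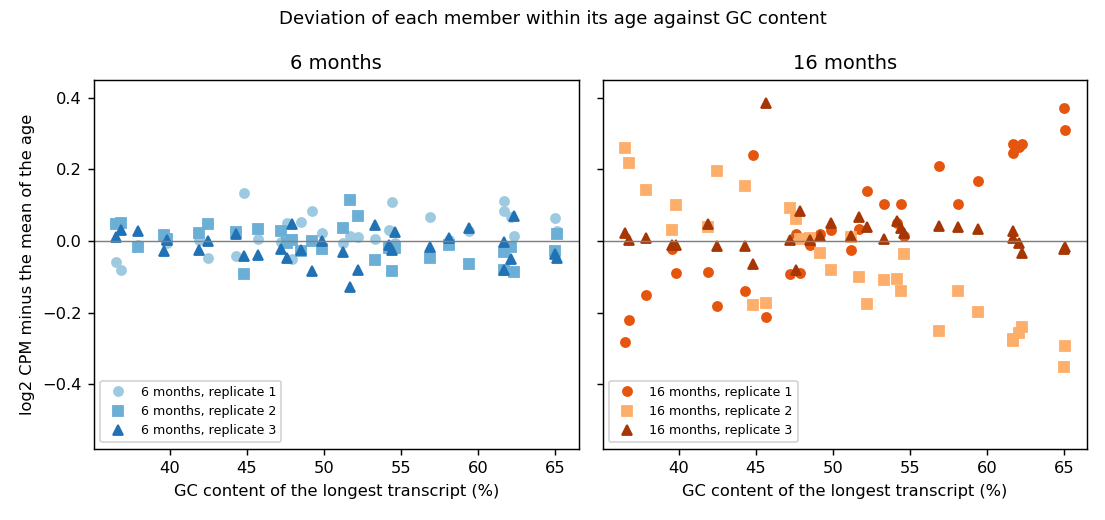
Deviation of each of the 32 genes from the mean of its age in log2 CPM, against the GC content of its longest transcript in percent, at 6 months and at 16 months. Symbols stand for the replicates. At 16 months replicate 1 climbs and replicate 2 falls with GC content (r = 0.88 and -0.88, not independent of each other), and the point of replicate 3 near the top is Grin2b.

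The deviations were further compared with the GC content of the promoters, taken from RefSeq on GRCm38.p6 as 250 bases before and 50 bases after the start of a transcript. For 23 of the 34 genes 28 promoters were found, with a median GC content of 62.7% (52.7% over all 32851 promoters) and a median of 16 CpG dinucleotides (7 over all). The GC box GGGCGG, searched on both strands, was held by 53.6% of them and by 35.7% of all promoters of this length, and such a match is a description of the letters only. Across the 21 tested genes with a promoter, the difference between replicates 1 and 2 of 16 months had r = 0.96 with the GC content of the transcript and r = 0.25 with that of the promoter, taken at the first listed start of each gene. For some genes, such as Neto2, Cacng8 and Grin2d, that start lay inside the annotated gene. The Neto2 promoter at it had a GC content of 42.7%, and the one at its other listed start had 72.0%. The value of 0.25 depends on this choice of start. The cause of the difference between replicates 1 and 2 was not tested. Cnih2 and Gria2 are printed as an example chosen by GC content. Their transcripts differ widely in it (62.3% and 36.8%) while the 250 bases before their starts do not (65.6% with 17 CpG and 64.8% with 19 CpG). Both lie on the minus strand of GRCm38.p6, at chr19:5098522-5098771 for Cnih2 and at chr3:80802836-80803085 for Gria2. They are written in the direction of transcription, with each CpG in capitals.
Cnih2: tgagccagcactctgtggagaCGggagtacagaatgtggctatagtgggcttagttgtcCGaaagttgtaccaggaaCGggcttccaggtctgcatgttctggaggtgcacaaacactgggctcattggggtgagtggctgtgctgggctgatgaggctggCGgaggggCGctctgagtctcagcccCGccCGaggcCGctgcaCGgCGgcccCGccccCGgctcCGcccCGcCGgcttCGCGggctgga
Gria2: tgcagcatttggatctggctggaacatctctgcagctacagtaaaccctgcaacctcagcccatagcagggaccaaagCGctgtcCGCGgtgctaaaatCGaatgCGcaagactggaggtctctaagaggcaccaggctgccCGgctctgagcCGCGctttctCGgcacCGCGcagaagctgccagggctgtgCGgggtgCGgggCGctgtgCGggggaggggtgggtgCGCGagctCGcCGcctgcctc

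Because GC content moved with the libraries, the test was repeated with offsets that account for the GC content and the length of a gene and remove in each sample the median deviation of genes of like GC content and length. With these offsets the median SD of the 32 genes at 16 months was 0.06. Of the 32 genes 9 then passed the threshold, which is 28.1%, where 14.2% of all tested genes did. In 8 of them the values at 16 months were higher (7.37% of all genes), and in Gria4 they were lower (6.80% of all genes).

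The AMPA receptor subunits (2 of 4 passed) and the auxiliary subunits (4 of 10) held 6 of these 9 genes, where 14.2% of all tested genes passed. In the other classes 1 of 6 NMDA receptor subunits, 1 of 6 metabotropic receptors, the delta receptor and 0 of 5 kainate receptor subunits passed. Gria2, Gria3, Cacng2, Cacng5, Cacng7, Cnih3, Neto1 and Neto2 did not pass. Gria1 rose with a log2 fold change of 0.14 (adjusted p = 0.00613) and Gria4 fell with -0.12 (adjusted p = 0.0324). Cnih2 rose with 0.31 (adjusted p = 0.00034), Cacng8 with 0.27 (adjusted p = 0.00365), Cacng4 with 0.23 (adjusted p = 0.00841) and Cacng3 with 0.16 (adjusted p = 0.0148). Outside the AMPA receptor and auxiliary subunits, Grin2b rose with 0.58 (adjusted p = 0.00355), Grm2 with 0.17 (adjusted p = 0.0316) and Grid1 with 0.13 (adjusted p = 0.0333, all edgeR's quasi-likelihood test with the offsets). The log2 fold changes of these 9 genes had the same sign without the offsets, where none of them passed.

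**Figure D4:**
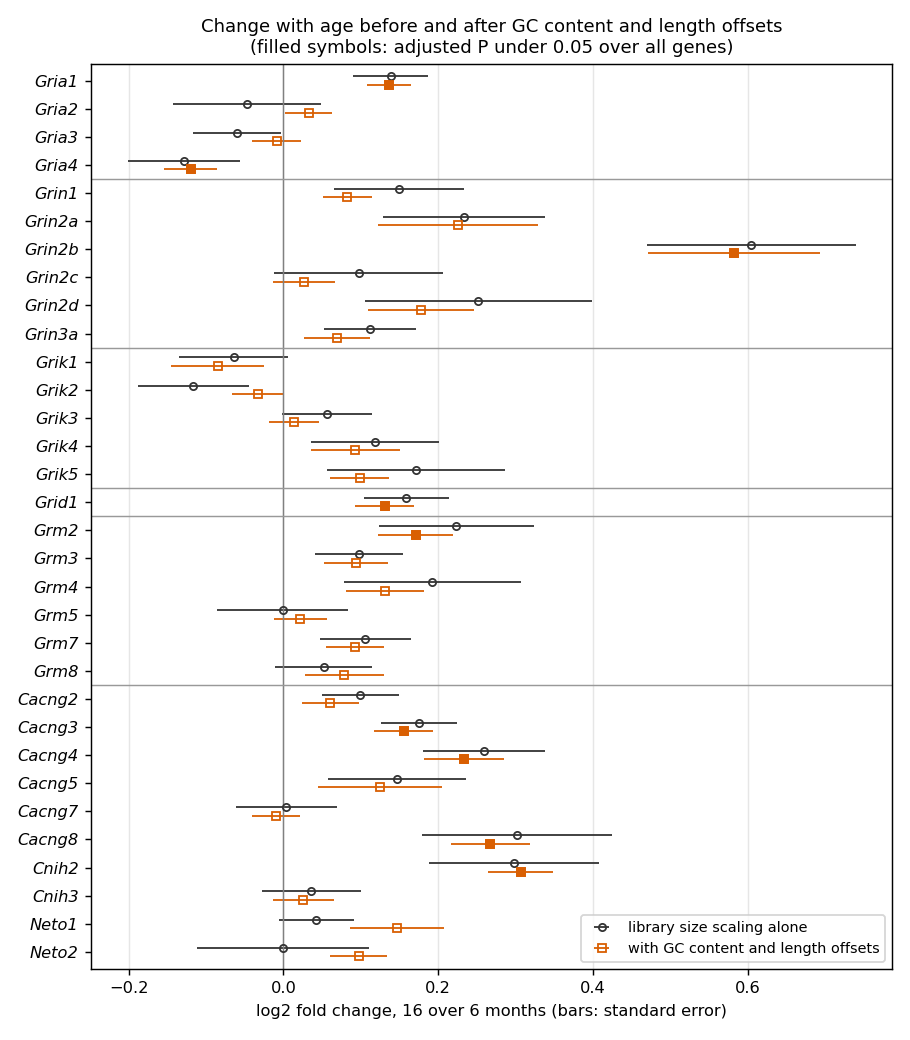
Log2 fold change of the 32 tested genes, 16 months over 6 months, with library size scaling alone (circles) and with offsets for GC content and length (squares), and bars for the SE. Filled symbols passed the adjusted threshold. No circle is filled, and 9 squares are, of which Gria4 is the single one left of 0.

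The number of genes past the threshold also depended on single samples. Without replicate 2 of 16 months it was 14 of 32 (43.8%, where 12.7% of all tested genes passed), of which 12 were higher and 2, Gria4 and Grik2, were lower. Without replicate 1 of 16 months it was 1, Grin2b (5.73% of all genes passed), and without replicate 3 of 16 months it was 0 (0.335% of all genes). With each sample of 6 months left out in turn it was also 0, where only 0.277% to 0.328% of all genes passed.

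The surrounding glutamate synapse was described through 46 other genes in 3 lists. None passed the test without offsets, and 17 had an unadjusted p under 0.05, all with higher values at 16 months (37.0%, against 8.57% of all genes). Log2 fold changes were positive in 40 of 46, with a median of 0.13, and 16 genes had no overlap between the ages, all higher (34.8%, against 12.2% of all genes tested). Postsynaptic scaffolds and kinases, such as the PSD-95, Shank and Homer families that hold receptors in place, had positive values in 21 of 23 genes with a median of 0.12, and the 12 other proteins of receptor assembly, among them neuronal pentraxins and Shisa proteins, were positive throughout with a median of 0.15. Genes of glutamate release, uptake and metabolism were positive in 7 of 11 with a median of 0.07. With the offsets for GC content and length 20 of the 46 passed (14.2% of all tested genes did), 18 higher (7.37% of all genes) and 2 lower (6.80% of all genes).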

How the data were processed

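The authors trimmed paired-end reads, aligned them to mm10 with STAR, obtained read counts for Ensembl genes from HTSeq and tested with DESeq2. The deposited values are raw counts, whole numbers without normalization. The submitters' processing notes instead name featureCounts, while the deposited counts end with HTSeq's summary categories, which were left out. The annotation release and the strand setting are not given in the sources used here. Reads on no annotated gene were 22.0% to 27.7% per sample.

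Of 38355 genes, 36602 were matched to GENCODE on GRCm38, the build of mm10. Age was tested on the counts with edgeR 4.0.16 under R 4.3.3 (TMM, filterByExpr, quasi-likelihood test of age without covariates, Benjamini-Hochberg adjustment, threshold 0.05). Levels are CPM after TMM, log2 values use a prior count of 2, and offsets are medians over 20 bins of genes. Alternatives were other normalizations, filters and fits, DESeq2 1.42.0, the offsets, a replicate block and each sample left out. Near-identical copies were searched with blastn. The test without offsets was tried on simulated counts that had no GC effect and the same spread at both ages. The test with offsets was not tried in this way. A floor of 3 counts is 0.0645 to 0.101 CPM per sample and covers counting error only.

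The genes, lists and offsets were chosen with earlier results of these data known. Every gene is named, with values per sample for those with an unadjusted p under 0.05, the highest per length of each family, and Grin2a and Grin2b.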

Additional observations from a re-analysis of the deposited data

How the results depend on the processing

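Without a filter on low counts 1 of the 32 glutamate receptor genes and 5 of the 46 pathway genes passed the threshold (2.35% of all genes did), with DESeq2 1 and 6 (2.67%), with GC and length offsets 9 and 20 (14.2%), and with each sample left out between 0 and 14 and between 0 and 21 (0.277% to 12.7%). Other normalizations, at least 10 counts in every sample, and the robust or newer fit gave 0 for the 32, where 1.64% to 1.7% of all genes passed. In the labels same-numbered samples of the ages share only a number. Their deviations correlated with r = 0.18, 0.0958 and 0.0351, and those of differently numbered samples with r from -0.13 to 0.0379. Replicate 3 of 16 months correlated more with replicate 2 of 6 months (0.0379) than with its own number, unlike replicates 1 and 2. Such correlations cannot decide whether samples were paired. With the replicate block 4 and 7 genes passed, where 4.57% of all genes did, and with the offsets and the replicate block 16 and 26, where 19.4% did. The cause of these differences was not tested.

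The AMPA receptor median was 0.012 with the offsets, with or without the block, and between -0.14 and 0.0196 with each sample left out. The median of the auxiliary subunits was between 0.0837 and 0.14 with each sample left out. Of 512 log2 fold changes under the alternatives 25, in 6 genes, changed sign, and none of these genes passed the main test. With the offsets, and with the offsets and block, Gria2 was 0.0326 and 0.0327, Grm5 0.0217 and 0.0201, Cacng7 -0.00974 and -0.0101, and Neto2 0.0974 and 0.0947. With DESeq2's size factors Grm5 was 0.000537 and Neto2 0.000416, with DESeq2's test Grm5 was 0.000055, and Cacng7 was -0.0113 with upper quartile normalization and -0.000403 without a filter. With each sample left out, Gria2 ranged from -0.16 to 0.0558, Grin2c from -0.0449 to 0.21, Grm5 from -0.10 to 0.0853, Cacng7 from -0.0486 to 0.0699, Cnih3 from -0.0171 to 0.0871 and Neto2 from -0.14 to 0.13.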
